A study of Mus musculus with 6 samples.

Results

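Oxidative phosphorylation was followed here through 92 mouse genes for nuclear-encoded subunits of the respiratory chain and the ATP synthase, with the assembly factors and isoforms that share their names. They are all the symbols that begin with Nduf, Uqcr, Cox4 to Cox8 or Atp5, or are Sdha to Sdhd, in the tables of NPC_LPCs and Hep_LPCs. Those tables hold 21876 symbols. The members fall into 36 subunits of complex I, 4 of complex II, 8 of complex III, 12 of complex IV, 15 of the ATP synthase, 8 tissue-restricted isoforms, 7 complex I assembly factors and 2 genes whose products are no subunits. Of these, 89 appear in the Bec_LPCs tables under the same symbol, and all 92 once older symbols are updated.

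RNA was sequenced from liver progenitor-like cells (LPCs), dividing cells derived in culture from adult mouse liver, with 2 libraries in each of 3 groups. Bec_LPCs came from pieces of intrahepatic bile duct of WT mice, which were plated in matrigel, passaged and sorted, and the design text calls them Epcam+. Hep_LPCs came from hepatocytes of ROSA26tdTomato mice given AAV8-TBG-Cre, a virus in which the hepatocyte promoter of thyroxine-binding globulin drives Cre. NPC_LPCs came from the non-parenchymal fraction, everything in the liver but hepatocytes, of AlbCreERT/R26GFP mice, in which an albumin promoter drives inducible Cre. All mice were C57BL/6 aged 6 to 8 weeks, and every group was cultured in Transition and Expansion Medium (TEM). Cell source, mouse line and virus differ together between the groups, so their effects cannot be told apart. The labels do not say whether the 2 libraries of a group came from separate animals or cultures. P-values therefore measure only the spread between these libraries, which may be technical in Bec_LPCs and NPC_LPCs. The 2 Hep_LPCs libraries differ in reads of a Y-chromosome gene, given below, so they are not repeats of the same cell sample.

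The respiratory chain passes electrons from NADH through complex I, or from succinate through complex II, to ubiquinone, then through complex III and cytochrome c to complex IV, where oxygen is reduced. Complexes I, III and IV pump protons across the inner mitochondrial membrane, and the ATP synthase (complex V) lets them flow back through a rotor to make ATP. A few subunits are encoded by mitochondrial DNA and all others, described here, by the nucleus. Hepatocytes are rich in mitochondria and rely on this route.

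Total counts were 22985844 and 22634867 in Bec_LPCs, 18123118 and 17575998 in Hep_LPCs, and 17919947 and 20625957 in NPC_LPCs, in order of replicate number. The Hep_LPCs and NPC_LPCs tables share a layout; the Bec_LPCs tables were made with another set of symbols. Over the members, chi-square per degree of freedom between the replicates was 2.78 in Bec_LPCs, 55.5 in Hep_LPCs and 17.1 in NPC_LPCs, where sampling noise alone gives about 1, so the groups do not have a common spread. 1 library stands apart: Ddx3y, a gene of the Y chromosome, had 1 read in Hep_LPCs replicate 2, 1032 in Hep_LPCs replicate 1 and 1431 to 2370 in the other libraries. Medians by complex and by length, and counts of calls, are also given without that replicate 2. The 6 biliary markers summed to 4109 and 3458 CPM (counts scaled to library size) in Bec_LPCs, 4922 and 2182 in Hep_LPCs and 9797 and 4697 in NPC_LPCs, so their sum does not set Bec_LPCs apart; Spp1 was the highest of them in every library. Epcam alone, which the design text names, was at 58.9 and 65.7 CPM in Bec_LPCs, 0.351 and 1.84 in Hep_LPCs and 0.116 and 0.61 in NPC_LPCs. The hepatocyte list summed to 257 and 265 CPM in Hep_LPCs and 28.9 and 51.4 in NPC_LPCs, most of it Hnf4a, while Alb, the albumin gene, stayed at 2.28 CPM or less in these 4 libraries. In Bec_LPCs that list summed to 128 and 105 CPM, so it was not particular to Hep_LPCs.

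Most respiratory chain genes were higher in Hep_LPCs than in NPC_LPCs, by a small margin that no single gene carried past the test. Of the 92 members, 86 passed the filter on low counts and 73 of these had a fold change above 1. In 57 both Hep_LPCs libraries lay above both NPC_LPCs libraries, which is 66.3% of members against 27.9% of all 12331 genes tested. In 7 both lay below (8.14%, against 28.6% of all genes), and in 22 the groups overlapped. The median log2 fold change, Hep_LPCs over NPC_LPCs, was 0.41 over members and -0.00295 over all genes, a median fold of 1.33 for the members. In these bulk samples fewer cells of a type and less RNA per cell cannot be told apart. No member was called by edgeR's quasi-likelihood test at an adjusted p under 0.05, against 98 of all genes (0.795%). At an unadjusted p under 0.05 there were 15 members higher in Hep_LPCs and 0 lower, against 10.5% of all genes higher and 11.6% lower. The number of members at that p, in either direction, was 6 with the replicate number as a block. With the length trend removed, described below, 5 were higher and 3 lower, against 1286 and 1284 of 12170 genes. Without Hep_LPCs replicate 2, 65 of 86 members had a fold above 1, while Uqcrh stood at -0.75 and Cox7a2l at -1.485 (log2). DESeq2's Wald test called 5 members higher (Atp5f1, Atp5g2, Cox6c, Ndufa12 and Ndufb9), where it called 5.81% of all genes higher, and limma-voom called 0. A fit of all 6 libraries called 2 (Ndufb7 and Ndufb9), beside 4.82% of all genes called higher.

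The 2 Hep_LPCs libraries did not carry the difference equally. Relative to each gene's mean over the 4 libraries, the median member stood at 0.09 and 0.31 (log2) in Hep_LPCs replicates 1 and 2, and at -0.20 and -0.21 in NPC_LPCs replicates 1 and 2. Of the 86 members, 57 were highest in Hep_LPCs replicate 2, which was also above replicate 1 for 66 of them. Members took 0.735% and 0.887% of all reads in Hep_LPCs, against 0.603% and 0.58% in NPC_LPCs. Without Hep_LPCs replicate 2 the median log2 fold change was 0.29 and 65 of 86 members had a fold above 1; without replicate 1 these were 0.54 and 77. By complex, the medians without Hep_LPCs replicate 2 were 0.40 for the ATP synthase, 0.29 for complex I, 0.19 for complex II, 0.44 for complex III, 0.18 for complex IV and -0.05 for the assembly factors, beside -0.05 for all genes. All 15 ATP synthase genes and 7 of 8 complex III genes then had a fold above 1, as did 27 of 36 complex I and 9 of 12 complex IV genes, while among the 7 core subunits of complex I these were 4, with a median of 0.02. In the same fit the log2 fold change was 0.60 for Atp5g2, 0.37 for Ndufb5, -0.13 for Ndufs8, -0.13 for Ndufv2 and -1.485 for Cox7a2l.

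**Figure D1:**
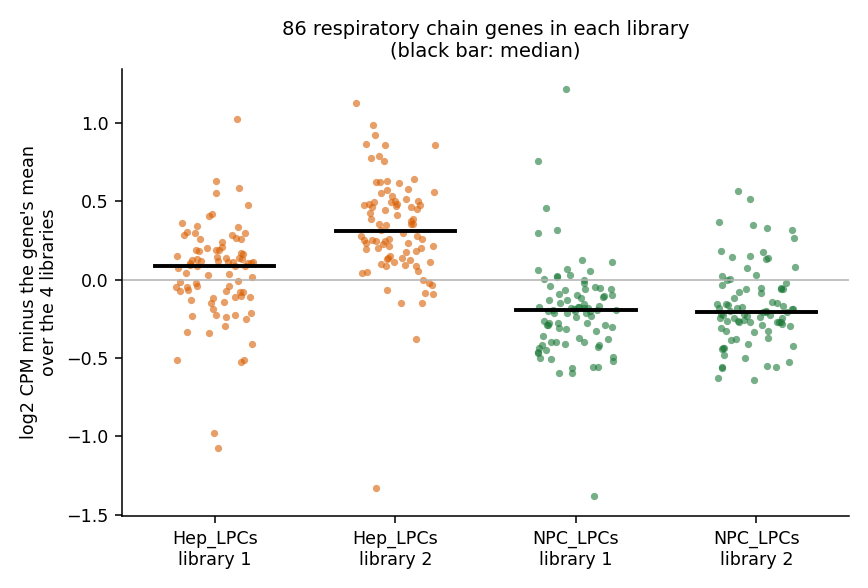
Each point is 1 of the 86 members tested; the vertical axis gives its log2 CPM in a library minus its mean over the 4 libraries, and black bars are medians. The medians are 0.09 and 0.31 for Hep_LPCs replicates 1 and 2, and -0.20 and -0.21 for those of NPC_LPCs, with wide overlap between points.

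The ATP synthase differed most evenly. All 15 of its subunit genes had both Hep_LPCs libraries above both NPC_LPCs libraries, with log2 fold changes between 0.35 and 1.26 and a median of 0.55. None was called, and 4 were at an unadjusted p under 0.05. Atp5g2, Atp5g3 and Atp5g1 encode subunit c, the ring of the rotor, as a single mature protein with different import sequences. Atp5g2 had 66.9 and 143 CPM in Hep_LPCs and 43.4 and 44.5 CPM in NPC_LPCs, which edgeR fitted as a log2 fold change of 1.26 ± 0.39 (SE; adjusted p = 0.153). Its 2 Hep_LPCs libraries differ by more than the lower of them differs from NPC_LPCs. Each SE was computed from a gene's log2 fold change and F statistic, with the spread moderated across genes. Atp5g3 had 98.2 and 133 CPM in Hep_LPCs and 68.8 and 61.7 CPM in NPC_LPCs (0.82 ± 0.26, adjusted p = 0.156). Atp5g1 had 33.4 and 44.2 CPM in Hep_LPCs and 21.1 and 25.1 CPM in NPC_LPCs (0.75 ± 0.29, adjusted p = 0.211). Per length, Atp5g2 made up 51.3% and 62.5% of subunit c FPKM in Hep_LPCs and 44.8% and 48.4% in NPC_LPCs, so its share was higher in both Hep_LPCs libraries; this share was not tested.

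Atp5f1, subunit b of the peripheral stalk that holds the head in place, had 389.7 and 394 CPM in Hep_LPCs against 256 and 190.0 CPM in NPC_LPCs (0.81 ± 0.26, adjusted p = 0.158). Atp5b, the catalytic beta subunit and the most abundant member by count, had 1229 and 1600 CPM in Hep_LPCs and 921 and 947 CPM in NPC_LPCs (0.60 ± 0.27, adjusted p = 0.256). Atp5c1, the gamma subunit that turns inside the catalytic head, had 222 and 214 CPM in Hep_LPCs and 155 and 143 CPM in NPC_LPCs (0.55 ± 0.23, adjusted p = 0.232). The groups were separate for all 3 of these genes.

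Complex I, the NADH dehydrogenase, was less uniform. Of its 36 subunit genes, 23 had Hep_LPCs above NPC_LPCs, 3 had it below and 10 overlapped, with a median log2 fold change of 0.43. The 7 members at an unadjusted p under 0.05 were all accessory subunits, which surround the catalytic core. Ndufb9, an accessory subunit of the membrane arm, had the smallest p of all members, with 55.5 and 75.3 CPM in Hep_LPCs against 29.5 and 29.5 CPM in NPC_LPCs (1.15 ± 0.27, adjusted p = 0.1). Its exons overlap those of another protein-coding model, Gm49356. Ndufa12, an accessory subunit whose gene has a pseudogene copy, had 140.2 and 99.5 CPM in Hep_LPCs and 26.5 and 60.8 CPM in NPC_LPCs (1.46 ± 0.44, adjusted p = 0.146). That is the largest fitted fold of all members, and the NPC_LPCs libraries differ from each other by more than 2-fold. Ndufs6, a zinc-binding subunit, had 66.2 and 50.7 CPM in Hep_LPCs and 32.4 and 35.3 CPM in NPC_LPCs (0.79 ± 0.27, adjusted p = 0.171). Ndufa5, Ndufb7, Ndufb5 and Ndufa8 were the other 4, with log2 fold changes of 0.91, 0.77, 1.002 and 0.63.

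Among the 7 core subunits, which carry the flavin and the iron-sulphur clusters, the median log2 fold change was 0.34 and 3 were separate and higher. Ndufs7, which holds the last cluster before ubiquinone, had 21.8 and 33.8 CPM in Hep_LPCs and 16.2 and 18.3 CPM in NPC_LPCs (0.69 ± 0.34, adjusted p = 0.295). Ndufs8, Ndufv1 and Ndufv2 overlapped, each with Hep_LPCs replicate 2 as its highest library; Ndufs8 had 26.7 and 57.4 CPM in Hep_LPCs and 33.6 and 24.7 CPM in NPC_LPCs. The accessory subunits Ndufv3 and Ndufs5 were below NPC_LPCs in both Hep_LPCs libraries. Ndufv3 had 42.7 and 48.6 CPM in Hep_LPCs and 67.2 and 61.1 CPM in NPC_LPCs (-0.49 ± 0.24, adjusted p = 0.291).

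Complex III, which hands electrons from ubiquinol to cytochrome c, had the highest median of the complexes, 0.60, with 7 of 8 subunit genes separate and higher and 1 separate and lower. Uqcrq, Uqcr10 and Uqcr11, small subunits of the membrane part, had unadjusted p under 0.05. Uqcrq had 59.3 and 102 CPM in Hep_LPCs and 46.7 and 46.1 CPM in NPC_LPCs (0.79 ± 0.32, adjusted p = 0.221). Uqcr10 had 40.6 and 47.6 CPM in Hep_LPCs and 29.96 and 23.1 CPM in NPC_LPCs (0.73 ± 0.28, adjusted p = 0.203), and Uqcr11 had 57.6 and 83.4 against 40.1 and 45.1 (0.73 ± 0.28, adjusted p = 0.208). The Rieske iron-sulphur protein gene Uqcrfs1 had 49.2 and 66.4 CPM in Hep_LPCs and 41.3 and 30.9 CPM in NPC_LPCs (0.68 ± 0.29, adjusted p = 0.247). Uqcrh, the acidic hinge protein at the cytochrome c site, was the exception, with 73.4 and 112 CPM in Hep_LPCs and 129.96 and 117 CPM in NPC_LPCs (-0.41 ± 0.29, adjusted p = 0.447).

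Complex II, the succinate dehydrogenase shared with the citrate cycle, showed little difference, with a median of 0.14 over 4 genes. Sdha, its flavoprotein, overlapped at 270.4 and 224 CPM in Hep_LPCs and 219 and 226 CPM in NPC_LPCs (0.15 ± 0.24, adjusted p = 0.744). Sdhb, the iron-sulphur subunit, also overlapped at 21.6 and 35.7 CPM in Hep_LPCs and 25.6 and 45.4 CPM in NPC_LPCs (-0.31 ± 0.41, adjusted p = 0.687). The anchor gene Sdhd was separate, with 71.9 and 85.4 CPM in Hep_LPCs and 58.8 and 54.8 CPM in NPC_LPCs (0.47 ± 0.24, adjusted p = 0.303).

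In complex IV, cytochrome c oxidase, 8 of 12 genes were separate and higher in Hep_LPCs, 1 was separate and lower and 3 overlapped, with a median of 0.40. Cox6c, a small membrane subunit with pseudogene copies, had 69.5 and 122 CPM in Hep_LPCs and 42.5 and 47.6 CPM in NPC_LPCs (1.09 ± 0.33, adjusted p = 0.146). Ndufa4, first assigned to complex I and now to complex IV, had 73.5 and 90.5 CPM in Hep_LPCs and 50.5 and 58.5 CPM in NPC_LPCs (0.59 ± 0.25, adjusted p = 0.236). Cox8a split widely between replicates, with 87.3 and 211 CPM in Hep_LPCs and 122 and 80.5 CPM in NPC_LPCs (0.56 ± 0.46, adjusted p = 0.509); without Hep_LPCs replicate 2 its log2 fold change was -0.21. The gene below was Cox7a2l, described as joining complexes III and IV into supercomplexes, a role not examined in these mice. Cox7a2l had 47.1 and 118 CPM in Hep_LPCs and 136 and 128 CPM in NPC_LPCs (-0.68 ± 0.44, adjusted p = 0.411). Its deposited FPKM do not share that order, at 45.9 and 78.1 in Hep_LPCs and 51.96 and 54.4 in NPC_LPCs, where the groups overlap, so the deposited counts and FPKM differ for Cox7a2l.

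The tissue-restricted isoforms were near or at 0 beside their widespread partners. FPKM, fragments scaled by transcript length and library depth, allows genes to be compared per length and was deposited for Hep_LPCs and NPC_LPCs. Cox8b and Cox8c, the muscle and testis forms of subunit 8, and Cox7b2 were listed at 0 in all 4 libraries, while Cox8a had 377 and 927 FPKM in Hep_LPCs and 514 and 322 FPKM in NPC_LPCs. Cox4i2, the form known from lung, had 1 and 0 reads in Hep_LPCs and 0 and 2 in NPC_LPCs, against 3547 to 4489 reads of Cox4i1. Cox6a2, of heart and skeletal muscle, had 6 and 2 reads in Hep_LPCs and 0 in NPC_LPCs. Ndufa4l2, a hypoxia-induced relative of Ndufa4, had 0 and 3 reads in Hep_LPCs and 0 in NPC_LPCs. A count of 0 allows up to 3 reads, or 0.149 to 0.169 CPM in these libraries.

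Cox7a1, the isoform of striated muscle, and Cox6b2, that of testis, were the only ones of the 8 to pass the filter. Cox7a1 had 11 and 5 reads in Hep_LPCs and 30 and 18 reads in NPC_LPCs, or 1.99% and 0.89% of COX7A FPKM in Hep_LPCs and 6.11% and 2.78% in NPC_LPCs. It was thus lower in both Hep_LPCs libraries, on few reads (log2 fold change -1.49 ± 0.86, adjusted p = 0.362). Cox6b2 had 0.899 and 4.89 FPKM in Hep_LPCs and 2.999 and 1.08 FPKM in NPC_LPCs, against 221 to 341 FPKM of Cox6b1. Markers of striated muscle summed to 0.475 CPM or less in these 4 libraries and erythroid markers to 0.

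**Figure D2:**
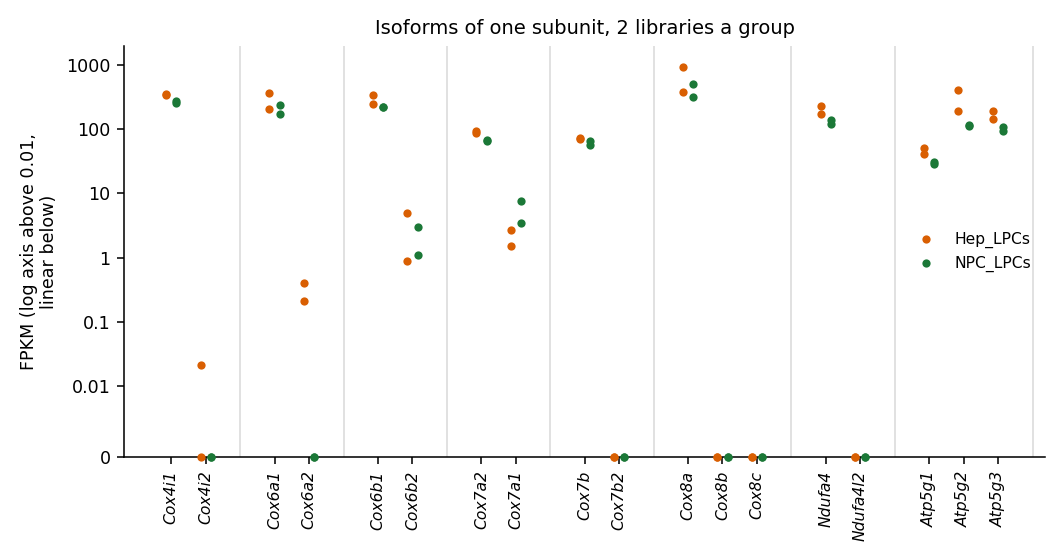
Deposited FPKM (vertical axis, log scale above 0.01) of isoforms of a subunit, grouped by family, in 2 Hep_LPCs and 2 NPC_LPCs libraries. The tissue-restricted forms lie at 7.76 FPKM or below, with Cox7a1 and Cox6b2 the highest, while Cox8a reaches 927 FPKM and the 3 subunit c genes all lie at 28.7 FPKM or above.

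The 7 complex I assembly factors, which build the complex and then leave it, had a median log2 fold change of 0.16, with 2 separate and higher, 1 separate and lower and 4 overlapping. Ndufaf2, which Ndufa12 replaces at the end of assembly, overlapped at 28.6 and 16.7 CPM in Hep_LPCs and 13.01 and 18.9 CPM in NPC_LPCs (0.51 ± 0.40, adjusted p = 0.497). Ndufaf6 was the one below, with 3.61 and 2.93 CPM in Hep_LPCs and 4.12 and 4.85 CPM in NPC_LPCs (-0.45 ± 0.53, adjusted p = 0.65). Atp5s and Atp5sl, named for the ATP synthase but not subunits of it, overlapped at 5.11 to 16.9 CPM with log2 fold changes of 0.01 and -0.04.

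**Figure D3:**
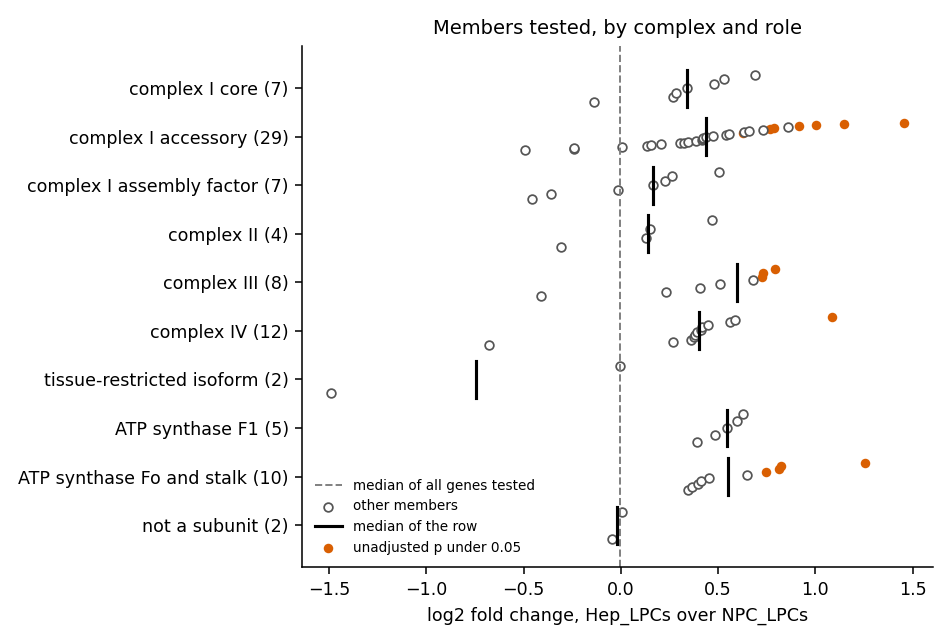
Log2 fold change of Hep_LPCs over NPC_LPCs (horizontal axis) for the 86 members tested, 1 row per complex or role with the number tested in brackets. Filled points have an unadjusted p under 0.05, black ticks are row medians and the dashed line is the median of all genes; all 15 ATP synthase genes lie to its right, while complex II and the assembly factors lie closer to it.

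Levels per length followed no single order within the chain. The highest mean FPKM over the 4 libraries were those of Cox8a (535) and Atp5b (525). Median FPKM of the complex IV subunits was 213 and 279 in Hep_LPCs and 170.2 and 170.3 in NPC_LPCs, and that of the complex I core subunits was 32.7 and 52.5 in Hep_LPCs and 30.9 and 24.7 in NPC_LPCs. Within the F1 head of the ATP synthase, Atp5b and Atp5e, the epsilon subunit, differed 10.4-fold in mean FPKM. Members together took 2.54% and 2.92% of all FPKM in Hep_LPCs, against 2.22% and 2.08% in NPC_LPCs. The FPKM of very short transcripts depends on the correction for fragment size, which the sources used here do not give.

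Respiratory chain transcripts are short, and short transcripts in general were higher in Hep_LPCs. The median longest annotated transcript was 963 bases for members and 3215 bases for all genes. Over all genes the median log2 fold change, Hep_LPCs over NPC_LPCs, was 0.39 for transcripts under 600 bases, 0.32 from 600 to below 1000, 0.24 from 1000 to below 2000, 0.03 from 2000 to below 4000 and -0.21 at 4000 bases or more. Members in the same classes had medians of 0.45, 0.41, 0.41, 0.28 and 0.69, the last over 2 genes. Below 600 bases 50.6% of all genes and 56.2% of members had both Hep_LPCs libraries above, and from 600 to below 1000 bases 44.3% and 79.3%. The same slope separates the Hep_LPCs replicates, where the median log2 ratio of replicate 2 over replicate 1 was 0.35 in the shortest class of all genes and -0.20 in the longest. Without Hep_LPCs replicate 2 the medians of all genes were 0.23, 0.14, 0.11, -0.03 and -0.14 in order of length, and those of members 0.23, 0.39, 0.15, 0.11 and 0.49.

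With the trend on length taken off each library, a fit chosen after seeing the data, the members' median was 0.17 against 0.02 for all genes. In that fit 65 of 86 members had a fold above 1, against 51% of all genes, 5 higher and 3 lower members had an unadjusted p under 0.05, and 0 were called. All 15 ATP synthase genes had a fold above 1 with a median of 0.34, complex III had 0.34, complex I 0.22 and complex IV 0.06. Ndufb9 stood at 0.80 ± 0.22, Ndufa12 at 1.22 ± 0.46, Atp5g1 at 0.91 ± 0.29, Atp5g2 at 0.88 ± 0.31 and Cox6c at 0.72 ± 0.25. Those lower at an unadjusted p under 0.05 were Uqcrh at -0.80 ± 0.23, Ndufv3 at -0.69 ± 0.22 and Cox7a2l at -1.004 ± 0.38.

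**Figure D4:**
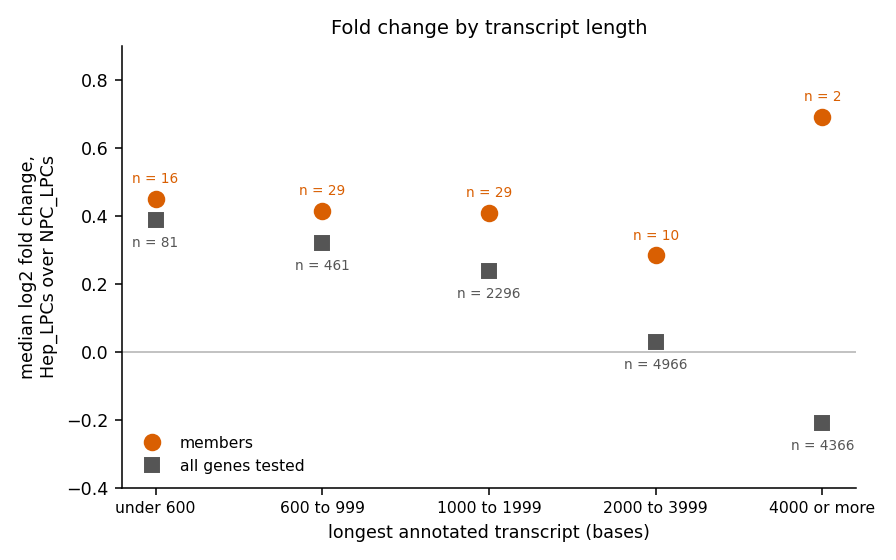
Median log2 fold change of Hep_LPCs over NPC_LPCs (vertical axis) by length of the longest annotated transcript, for members (circles) and all genes tested (squares), with the number of genes beside each point. Medians of all genes go down with length, with 0.39 in the shortest class and -0.21 in the longest, and members lie above all genes in each class.

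Promoters of respiratory chain genes are known for sites of the factors NRF1, GABP (of the ETS family), YY1 and the estrogen-related receptors (ERR), which link the nuclear subunits to mitochondrial growth. RefSeq promoters (GRCm38.p6, 250 bases before to 50 after the start) were found for 76 of the 92 members and searched on both strands for fixed letters. The NRF1 letters (GCGCA and GCGC with any base between them) were in 25% of members with a promoter and in 7.17% of all 17492 genes. YY1 letters (AAGATGGC) were in 14.5% and 3.57%, ETS letters (CCGGAAG) in 22.4% and 12.9%, ERR letters (AAGGTCA) in 10.5% and 4.73%, and SP letters (GGGCGG) in 44.7% and 49.2%. The motifs are distinct but their matches may overlap in place. A match is a description of these letters, not a site of binding.

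Promoters of 4 members are printed because these genes are among the 15 members with an unadjusted p under 0.05 and each shows a different set of these letters. Capitals mark NRF1 and, upstream of it, ERR letters in Atp5g3, NRF1 and then YY1 letters in Ndufs6, YY1 letters in Atp5f1 and ETS letters in Uqcr11. SP letters, which Atp5f1 also holds, are left in lower case.
Atp5g3 promoter, chr2:73911277-73911576, minus strand: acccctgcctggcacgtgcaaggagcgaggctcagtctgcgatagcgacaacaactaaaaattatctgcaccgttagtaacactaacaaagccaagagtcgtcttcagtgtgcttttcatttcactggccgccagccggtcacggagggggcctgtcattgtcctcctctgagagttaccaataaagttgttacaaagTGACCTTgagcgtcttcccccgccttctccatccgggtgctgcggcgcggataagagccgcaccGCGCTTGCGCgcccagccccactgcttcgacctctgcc
Ndufs6 promoter, chr13:73328433-73328732, minus strand: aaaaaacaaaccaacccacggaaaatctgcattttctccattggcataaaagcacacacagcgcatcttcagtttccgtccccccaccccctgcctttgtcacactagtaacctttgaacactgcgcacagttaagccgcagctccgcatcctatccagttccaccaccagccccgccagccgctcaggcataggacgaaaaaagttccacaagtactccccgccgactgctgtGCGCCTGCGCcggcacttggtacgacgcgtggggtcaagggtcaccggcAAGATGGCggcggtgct
Atp5f1 promoter, chr3:105959214-105959513, minus strand: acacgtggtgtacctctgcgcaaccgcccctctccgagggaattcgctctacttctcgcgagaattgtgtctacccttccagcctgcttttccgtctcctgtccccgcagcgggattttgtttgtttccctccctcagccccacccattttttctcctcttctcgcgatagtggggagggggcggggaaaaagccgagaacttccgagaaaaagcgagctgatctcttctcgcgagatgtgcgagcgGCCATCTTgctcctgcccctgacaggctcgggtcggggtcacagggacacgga
Uqcr11 promoter, chr10:80406772-80407071, minus strand: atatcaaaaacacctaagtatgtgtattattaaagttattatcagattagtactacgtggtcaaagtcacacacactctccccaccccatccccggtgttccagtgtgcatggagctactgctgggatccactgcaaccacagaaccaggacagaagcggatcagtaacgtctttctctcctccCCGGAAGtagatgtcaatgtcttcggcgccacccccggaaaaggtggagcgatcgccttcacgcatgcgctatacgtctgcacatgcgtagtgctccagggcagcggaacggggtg

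Most lists of neighbouring mitochondrial genes also had medians above 0 in Hep_LPCs against NPC_LPCs. Over all genes tested, 27.9% were separate and higher and 28.6% separate and lower. In the length classes under 2000 bases, 40.9% to 50.6% of all genes were separate and higher. Of 17 tested electron carrier and ubiquinone synthesis genes, 11 were separate and higher and 1 lower, with a median log2 fold change of 0.49. Cyc1, the cytochrome c1 subunit of complex III, which the naming rule leaves out, had 85.1 and 125 CPM in Hep_LPCs and 40.2 and 36.7 CPM in NPC_LPCs (1.45 ± 0.28, adjusted p = 0.078). That adjusted p is below those of all 86 members. Cycs, somatic cytochrome c, had 197 and 175 CPM in Hep_LPCs and 108 and 118 CPM in NPC_LPCs (0.72 ± 0.23, adjusted p = 0.161). Of 37 tested assembly factors not caught by the rule, 20 were separate and higher and 3 lower (median 0.35), led by Coa3 at 1.09 ± 0.28 (adjusted p = 0.111).

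The citrate cycle outside complex II had 11 of 14 genes separate and higher (median 0.36), with Mdh2, malate dehydrogenase, at 520.5 and 640 CPM in Hep_LPCs and 321 and 315 CPM in NPC_LPCs (0.87 ± 0.25, adjusted p = 0.136). Genes of pyruvate entry had 0 of 12 separate and higher, 4 separate and lower and a median of -0.02. For these lists too, the shares over all genes were 27.9% higher and 28.6% lower. Pdk3, a kinase that switches off pyruvate dehydrogenase, had 10.2 and 6.76 CPM in Hep_LPCs and 25.2 and 22.4 CPM in NPC_LPCs (-1.49 ± 0.36, adjusted p = 0.106). Carriers of nucleotides and phosphate had 5 of 7 separate and higher (median 0.55), regulators of mitochondrial biogenesis 7 of 14 (median 0.40). Tfam, the factor that packages and transcribes mitochondrial DNA, had 67.6 and 58.1 CPM in Hep_LPCs and 29.0 and 36.3 CPM in NPC_LPCs (0.94 ± 0.26, adjusted p = 0.126). Subunits of the mitochondrial ribosome, which translates the mitochondrially encoded partners of the members, had 60 of 77 separate and higher and 0 lower (median 0.51). Cytosolic ribosomal protein genes, a list added after values were seen because their transcripts are short too, had 59 of 77 higher and 1 lower (median 0.42). No gene of these lists was called, and with the length trend removed their medians were 0.22 for electron carriers, 0.28 for assembly factors, 0.32 for the citrate cycle, -0.17 for pyruvate entry, 0.43 for carriers, 0.39 for regulators, 0.32 for the mitochondrial and 0.13 for the cytosolic ribosome. In the 6-library fit described next, the mitochondrial ribosome had 2 of 78 genes called higher and 8 lower in Bec_LPCs against NPC_LPCs, beside 4.89% and 6.44% of all genes. Against Hep_LPCs it had 2 called higher and 32 lower, beside 16.1% and 17.2% of all genes.

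Bec_LPCs, the bile duct cells, differed from NPC_LPCs in both directions within the same complexes. These values come from a fit of all 6 libraries over 20571 shared symbols, with CPM scaled anew. The fit gives each gene a single spread for all groups, although the groups do not have a common spread. Of 86 members tested, 12 rose and 3 fell in Bec_LPCs, against 4.89% of all genes called higher and 6.44% called lower. The median log2 fold change was 0.19 over members and 0.01 over all genes. Of the 58 members tested that should be counted alike under either symbol set (no large exon overlap and no near-identical copy), 5 rose and 1 fell, against 4.89% and 4.58% of all such genes. The calls rest on few libraries. With either Bec_LPCs library left out no member call held, and with an NPC_LPCs library left out fewer were made. Calls over all genes dropped as well. A fit of only the 4 libraries compared called 28 members, beside 2491 of 12693 genes, where the fit of all 6 called 15, beside 1458 of 12867.

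Small subunits of the ATP synthase and complex I rose most in Bec_LPCs. Atp5e, the epsilon subunit of the F1 head, had 42.2 and 41.8 CPM in Bec_LPCs and 8.2 and 9.76 CPM in NPC_LPCs (2.22 ± 0.21, adjusted p = 0.00504). Ndufc1, a small accessory subunit of complex I, had 22.3 and 21.7 CPM in Bec_LPCs and 5.43 and 4.57 CPM in NPC_LPCs (2.14 ± 0.29, adjusted p = 0.0149). Ndufa2 had 41.1 and 37.3 CPM in Bec_LPCs and 10.8 and 9.71 CPM in NPC_LPCs (1.93 ± 0.21, adjusted p = 0.00772). All 3 are in the counted-alike set. Over all genes with transcripts under 600 bases the median in this comparison was 0.53, and in the longer classes it was 0.08, -0.01, -0.04 and 0.06. Atp5g3 rose by 1.19 ± 0.20 (adjusted p = 0.0241) and Cox7a2, the widespread COX7A form, by 0.71 ± 0.16 (adjusted p = 0.0445), both counted alike. The other 7 that rose, Atp5k, Ndufa7, Ndufb6, Atp5g1, Ndufs3, Atp5j2 and Ndufa13, have copies or overlaps, with log2 fold changes between 0.83 and 1.44.

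Atp5o, the OSCP subunit that joins the F1 head to the peripheral stalk, fell furthest in Bec_LPCs. It had 26.3 and 27.8 CPM in Bec_LPCs and 81.9 and 78.5 CPM in NPC_LPCs (-1.57 ± 0.15, adjusted p = 0.00511). Its annotation holds a further protein-coding model of the same name, which overlaps 12.3% of its exonic length, and a pseudogene copy, Gm5436. Its counts thus depend on how shared reads were treated. Uqcrb, a ubiquinone-binding subunit of complex III with pseudogene copies, had 47.9 and 51.4 CPM in Bec_LPCs and 136 and 108 CPM in NPC_LPCs (-1.29 ± 0.18, adjusted p = 0.0151). Ndufv3 was the fall in the counted-alike set, with 37.98 and 35.4 CPM in Bec_LPCs and 70.7 and 62.7 CPM in NPC_LPCs (-0.86 ± 0.17, adjusted p = 0.0334).

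Against Hep_LPCs, Bec_LPCs had 10 members higher and 17 lower, beside 16.1% and 17.2% of all genes, shares close to those of the members. The median log2 fold change was -0.24 over members and 0.03 over all genes, and 0.05 over members without Hep_LPCs replicate 2. Without that library 14 members were called higher and 17 lower, beside 15.9% and 17.1% of all genes, and 24 of the 27 calls held; those lost were Ndufa11, Ndufa12 and Uqcr11. With either Bec_LPCs library left out far fewer calls were made, for members and over all genes alike. The member calls that held were those of Atp5o and Ndufb9, neither of which is in the counted-alike set. In the counted-alike set 5 of 58 rose and 7 fell, against 17.2% and 14.8% of such genes.

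Among the falls against Hep_LPCs were 4 of the 5 genes of the F1 head and 4 of the 8 genes of complex III. Atp5b had 873 and 877 CPM in Bec_LPCs and 1295 and 1684 CPM in Hep_LPCs (-0.77 ± 0.19, adjusted p = 0.0281). Atp5a1, the alpha subunit, had 554 and 522 CPM in Bec_LPCs and 821 and 825 CPM in Hep_LPCs (-0.61 ± 0.16, adjusted p = 0.0307), and Atp5d and Atp5c1 fell by 0.87 and 0.52. The remaining F1 gene, Atp5e, rose, with 42.2 and 41.8 CPM in Bec_LPCs and 13.5 and 14.7 CPM in Hep_LPCs (1.58 ± 0.21, adjusted p = 0.0056). In complex III the core proteins Uqcrc1 and Uqcrc2 fell by 0.89 and 0.85, Uqcr11 by 0.72 and Uqcrb by 1.55. Ndufb9 had 18.02 and 17.7 CPM in Bec_LPCs and 58.4 and 79.3 CPM in Hep_LPCs (-1.95 ± 0.21, adjusted p = 0.00359), and Atp5o had 26.3 and 27.8 CPM in Bec_LPCs and 106 and 109.9 CPM in Hep_LPCs (-1.997 ± 0.15, adjusted p = 0.00165). The other falls were Ndufa12, Ndufa11, Atp5f1, Ndufs6, Ndufb10, Atp5h and Cox5b, with log2 fold changes between -1.45 and -0.51; of these, Ndufb10 is in the counted-alike set.

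In complex I, 7 of 36 subunits rose and 5 fell against Hep_LPCs, shares near those of all genes called (16.1% and 17.2%). Ndufc1 had 22.3 and 21.7 CPM in Bec_LPCs and 5.62 and 7.95 CPM in Hep_LPCs (1.70 ± 0.29, adjusted p = 0.0111), and Ndufa2 had 41.1 and 37.3 CPM in Bec_LPCs and 18.6 and 15.96 CPM in Hep_LPCs (1.18 ± 0.21, adjusted p = 0.0115). Further rises were those of Ndufs3, Ndufa13, Atp5k, Ndufa7, Atp5s and Ndufb6, between 0.70 and 1.54, of which Atp5s is counted alike. Of the 32 members called in at least 1 of the 2 comparisons, 10 were called in both, and these comparisons share the Bec_LPCs libraries. Mesenchymal and stellate markers summed to 171 and 208 CPM in Bec_LPCs, 5.15 and 3.32 CPM in Hep_LPCs and 3.64 and 16.1 CPM in NPC_LPCs, and their part in these differences was not tested.

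**Figure D5:**
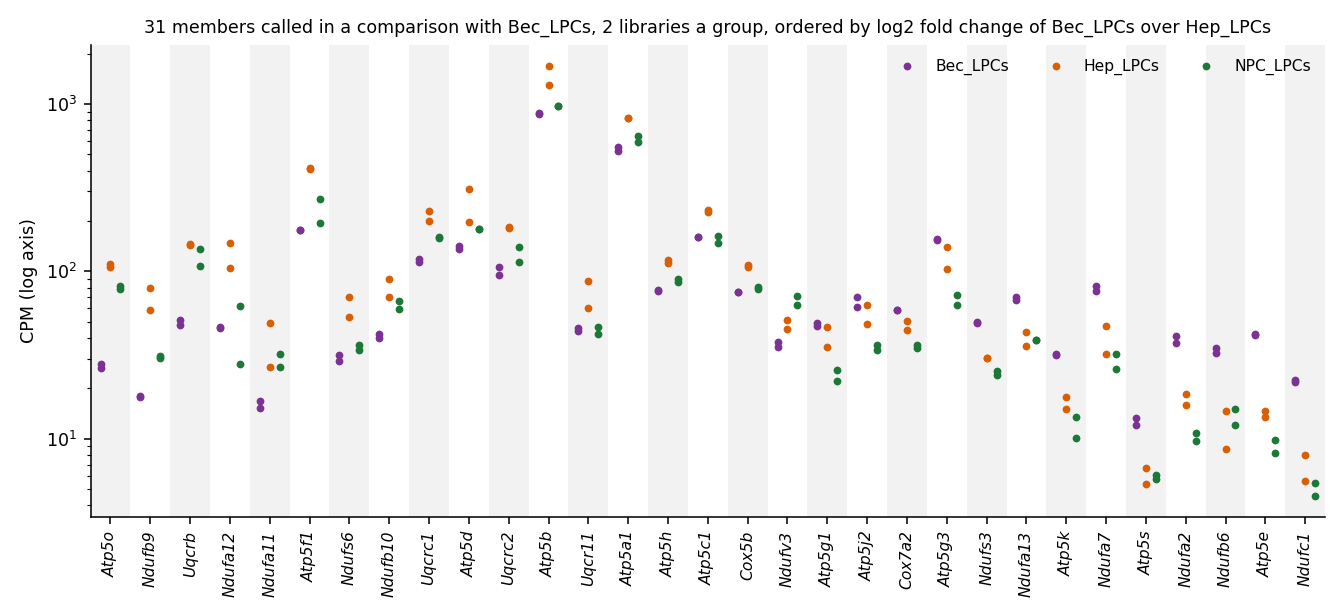
CPM (log axis) of 31 members called in a comparison with Bec_LPCs, in 2 libraries each of Bec_LPCs, Hep_LPCs and NPC_LPCs, ordered by the log2 fold change of Bec_LPCs over Hep_LPCs, from -1.997 for Atp5o to 1.70 for Ndufc1. The 2 Bec_LPCs libraries lie closer together than those of the other groups for most genes.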

How the data were processed

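RNA was sequenced from stranded paired-end libraries of polyadenylated RNA, per the labels' protocols, and per the submitters' processing notes Trimmomatic, HISAT2, Cufflinks, HTSeq and DESeq were used with mm10, without versions, roles or a strand setting. Whole-number counts per gene symbol were deposited for each library and, by the authors, FPKM for Hep_LPCs and NPC_LPCs. In the Bec_LPCs tables rows without a name held 0.000191% and 0.000181% of counts. Samples were grouped by title. Members and lists were chosen with earlier results of these data known.

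Counts were filtered with filterByExpr, scaled by TMM and tested with edgeR's quasi-likelihood test (edgeR 4.0.16, robust, two-sided), with Benjamini-Hochberg adjustment over all genes tested and calls at an adjusted p under 0.05. Hep_LPCs and NPC_LPCs were fitted on 4 libraries, Bec_LPCs on all 6, after older symbols were updated (837 in the Hep_LPCs and NPC_LPCs tables, 16 in Bec_LPCs). Counted-alike genes are protein-coding, share at most 25% of exonic length with another protein-coding gene (bedtools 2.31.1) and have no copy of 95% identity over 200 bases (minimap2 2.31-r1302), in GENCODE M21; 64 of 92 members qualify. In simulated data, 200 of 200 changed genes were recovered with 6 false calls in the 4-library fit of 12331 genes. Recovery of differences as small as the members' median, or at the uneven spread between these replicates, was not tested. Named members were those called, those of smallest p and highest FPKM per complex, and isoform pairs; other lists give up to 4 genes by p. Alternatives were other scalings and filters, the Wald test of DESeq2 1.42.0, voom and limma on log2(FPKM + 1) and log2(FPKM + 0.1) (limma 3.58.1), a replicate block, each library left out, other sets of libraries, symbols or genes, and a length trend. Proteins were not used here, and 1 member is counted but not reported here.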

Additional observations from a re-analysis of the deposited data

Results flagged for a closer look

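Signals of 3 kinds for the respiratory chain lie in the Bec_LPCs tables under symbols that the Hep_LPCs and NPC_LPCs tables used here do not list, and were in no comparison. The 13 mitochondrially encoded subunit genes held 962786 reads in Bec_LPCs replicate 1 and 963927 in replicate 2, or 4.19% and 4.26% of all counts. Ndufb1, an accessory subunit of complex I, had 760 and 744 reads. Cox5b-ps, a pseudogene of Cox5b, had 17 and 7 reads, above the limit of 3 reads that a count of 0 allows.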

How the results depend on the processing

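With 2 libraries a group, and with Bec_LPCs counted on another symbol set, single calls are fragile; FPKM are lacking for Bec_LPCs and depth limits only the isoforms near 0 reads. For Hep_LPCs against NPC_LPCs the number of members called was 0 in the fit reported, 5 by DESeq2's Wald test, 2 in a fit of all 6 libraries and 0 under the other alternatives, each library left out included. The median member log2 fold change was 0.41, lay between 0.29 and 0.54 with a library left out and was 0.17 with the length trend removed. For Bec_LPCs against NPC_LPCs 15 members were called, beside 1458 of 12867 genes. DESeq2 called 26, beside 2897 genes, and the fit of only the 4 libraries compared 28, beside 2491 of 12693. Among counted-alike genes fitted alone 5 members were called, beside 610 of 9917 genes. Calls also moved with a library left out, for members and all genes alike. With either Bec_LPCs library left out, no member call held. The median of 0.19 became 0.35 with library size alone, which also put the median of all genes at 0.17, 0.20 with no low-count filter, 0.14 among counted-alike genes, 0.064 with the length trend removed and 0.11 to 0.25 with a library left out. For Bec_LPCs against Hep_LPCs 27 were called, with 14 among counted-alike genes and 2 to 31 with a library left out, and the median of -0.24 became -0.064 with library size alone (all genes 0.21) and -0.31 to 0.0495 with a library left out. With 1 library left in a group, it was assumed to vary like the other groups.

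The replicate numbers pair no samples: same-numbered libraries deviated from their group means with r = -0.01, 0.09 and -0.04. The replicate number as a block gave 0 calls for Hep_LPCs against NPC_LPCs, 8 instead of 15 for Bec_LPCs against NPC_LPCs and 19 for Bec_LPCs against Hep_LPCs. Among 30 members that the naming rule chose for Hep_LPCs against NPC_LPCs, 476 values kept direction and side of the threshold, 4 passed it and 12 changed sign. With the length trend removed these were Uqcrb at -0.12, Ndufs3 at -0.0107, Ndufa13 at -0.26 and Atp5s at -0.20. With a library left out Ndufb6 ranged from -0.66 to 0.10, Ndufa13 from -0.14 to 0.15, Ndufa11 from -0.16 to 0.73 and Atp5s from -0.15 to 0.17. Ndufa13 was also at -0.0105 with a filter of 10 CPM, -0.00186 with limma-voom and -0.00102 with the block. The cause was not tested. Members called against Bec_LPCs kept their sign under every alternative run, with 60 of 246 values no longer past the threshold for NPC_LPCs and 92 of 442 for Hep_LPCs.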

Other observations

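Within the mitochondrially encoded genes of Bec_LPCs, reads were spread very unevenly. mt-Co1, a catalytic subunit of complex IV, had 321329 and 320820 reads and mt-Cytb, of complex III, 202256 and 201764. The other catalytic and structural subunits of complex IV, mt-Co2 and mt-Co3, had 496 and 365 reads and 363 and 278 reads. The ATP synthase genes mt-Atp6 and mt-Atp8 had 291 and 176 reads and 28 and 15 reads, while mt-Nd3 and mt-Nd4l of complex I had 145 and 103 reads and 80 and 41 reads. The remaining 5 complex I genes had 31915 to 119178 reads. These are counts as deposited for a single group, and the levels of different genes are not per length. Copies of these genes in the nuclear genome were not searched for, so a low count need not mean low expression.

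3 subunits or assembly factors outside the naming rule appear in the Hep_LPCs and NPC_LPCs tables under older symbols, listed here by their updated ones. Atp5mpl, a small subunit of the ATP synthase, had 42.0 and 36.9 CPM in Bec_LPCs, 15.4 and 25.6 CPM in Hep_LPCs and 19.9 and 14.6 CPM in NPC_LPCs. Its log2 fold change, Bec_LPCs over NPC_LPCs, was 1.19 ± 0.31 (edgeR adjusted p = 0.0628). Atp5md had 65.0 and 62.4 CPM in Bec_LPCs, 52.7 and 90.8 CPM in Hep_LPCs and 51.6 and 35.8 CPM in NPC_LPCs. Ndufaf8, a complex I assembly factor, had 6.58 and 5.1 CPM in Bec_LPCs, 2.11 and 3.09 CPM in Hep_LPCs and 1.73 and 2.39 CPM in NPC_LPCs. None of the 3 was called in any of the 3 comparisons.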
